A study of Mus musculus with 9 samples.

Results

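The nuclear receptors are transcription factors that bind DNA, and most of them are switched by small lipid-soluble molecules such as steroids, retinoids, thyroid hormone, vitamin D, oxysterols and fatty acids. The genes described here are 46 members of this family, taken by symbol from a list of 46 names and found in the deposited table of gene counts through their Entrez IDs, out of 24594 genes in all. All 46 were in the table, and 31 passed the filter on low counts and were tested. The RNA came from BG2 cells, a mouse mammary tumour line of the MMTV-NIC (MMTV-Neu-IRES-Cre) strain, in which the MMTV promoter drives the oncogene Neu together with Cre in mammary epithelium. There were 9 libraries: 3 of Sox10 knockout clone 1, 3 of Sox10 knockout clone 2 and 3 of the control, which the labels call wildtype and whose library names hold NTC. Both clones were expanded from a population edited by CRISPR with guides against exon 3 of Sox10, so each knockout is 1 clone, while the control is a bulk population. All groups carry the Neu and Cre transgene, and the labels give no age and no treatment. The libraries of a group are technical replicates by the labels, so p-values measure the spread between libraries and not between cultures or clones.

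Receptors of this family share a zinc-finger domain that reads short DNA motifs, many of them built from the half-site AGGTCA, and a domain that binds the ligand. Steroid receptors are held in the cytoplasm or nucleus by HSP90 chaperones and pair with themselves, whereas the receptors for retinoic acid, thyroid hormone, vitamin D, fatty acids and oxysterols pair with a retinoid X receptor (RXR). Bound to ligand they recruit coactivators, and several of them recruit corepressors when no ligand is present. In the mammary gland the oestrogen and progesterone receptors mark hormone-sensing luminal cells, and the glucocorticoid receptor acts in milk gene expression.

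The libraries held 65805296 to 83282841 counts, and 3 counts in 1 library corresponded to 0.0360 to 0.0455 CPM (counts scaled to the TMM-adjusted library size). Sox10 had 0, 6 and 0 counts in libraries of clone 1, 0, 2 and 2 counts in libraries of clone 2 and 16660, 21437 and 26038 counts in the control. Replicate 1 stood apart from the other replicates in every group. Of 13928 genes tested in edgeR, 76.5% passed at adjusted p under 0.05 in clone 1 against the control, 74.4% in clone 2 against the control and 57.6% between the clones, so a call by itself sets a gene apart from few others. The 6 mammary epithelial markers summed to 1120 to 1270 CPM in clone 1, 1490 to 1690 CPM in clone 2 and 5140 to 6120 CPM in the control, most of it the keratins Krt8 and Krt18. Epcam, Krt8, Krt18 and Cdh1 fell in both clones, and Epcam had 0 counts in clone 2. The basal keratin gene Krt14 went the other way, at 10.05 CPM in clone 1, 135.2 CPM in clone 2 and 3.803 CPM in the control, and Krt5, at 0.396 CPM or less in each group, rose in clone 1 (log2 fold change 1.92, adjusted p = 0.0134). The immune markers Ptprc and Cd3e and the fibroblast marker Lum were at 0 in both clones, while the fibroblast list summed to 176 to 179 CPM in clone 1, 107 to 115 CPM in clone 2 and 9.16 to 10.6 CPM in the control, most of it Pdgfra. The immune list summed to 9.34 to 11 CPM in clone 1, 37.9 to 39.8 CPM in clone 2 and 7.24 to 12.4 CPM in the control, most of it Cd68. The 3 endothelial markers summed to 15.3 to 17.3 CPM in clone 1, 0.456 to 0.927 CPM in clone 2 and 0 to 0.0867 CPM in the control. Most of it in the clones was Kdr, with Pecam1 at 2 to 6 counts in a group. Cdh5 had 4 counts in clone 1, 34 in clone 2 and 2 in the control, so it was highest in clone 2 and Kdr in clone 1. The 4 adipocyte markers summed to 3.44 to 4.40 CPM in clone 1, 7.93 to 9.90 CPM in clone 2 and 0.554 to 0.729 CPM in the control, most of it Fabp4, with Adipoq at 0 in both clones. The part of these marker genes in the receptor results was not tested. In such bulk libraries fewer cells of a type and less RNA per cell cannot be told apart.

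Of the 46 receptor genes, 24 reached 1 CPM in clone 1, 24 in clone 2 and 24 in the control, and 22 reached it in every group. Their summed level was 1863 ± 29.1 CPM in clone 1, 1392 ± 23.1 CPM in clone 2 and 1232 ± 80.6 CPM in the control (SD, n = 3 each). Per kilobase of exon, Rarg, the gamma receptor of retinoic acid, stood first in each group, at 77.2 ± 3.73 CPM per kb in clone 1, 48.7 ± 2.40 CPM per kb in clone 2 and 49.2 ± 3.91 CPM per kb in the control. Rxra, which encodes an RXR subtype, followed at 64.2 ± 1.79 CPM per kb in clone 1 and 46.8 ± 1.39 CPM per kb in clone 2. Its distance from Rarg in clone 2 is within the spread of the replicates. In the control the second place belonged to Nr1h2, one of the 2 oxysterol receptors, at 36.2 ± 3.07 CPM per kb, ahead of Rxra at 30.1 ± 2.74 CPM per kb. The vitamin D receptor gene Vdr ranked 3 in clone 1 at 37.9 ± 1.13 CPM per kb, 8 in clone 2 at 16.1 ± 0.214 CPM per kb and 10 in the control at 10.2 ± 1.93 CPM per kb.

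The 15 receptor genes that were too low to test had at most 6 counts in a library. The oestrogen receptor beta gene Esr2, the progesterone receptor gene Pgr, Rxrg, the fat-cell regulator Pparg, the photoreceptor gene Nr2e3 and the receptors without a DNA-binding domain, Nr0b1 and Nr0b2, had 0 counts in all 9 libraries. The other 8 (Esrrg, Rorb, Nr1i3, Nr2e1, Nr5a1, Nr5a2, Hnf4a and Hnf4g) had 1 to 6 counts in at least 1 library. A count of 0 allows a level of up to 0.0360 to 0.0455 CPM in a single library, so lower levels were not detectable at this depth.

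**Figure D1:**
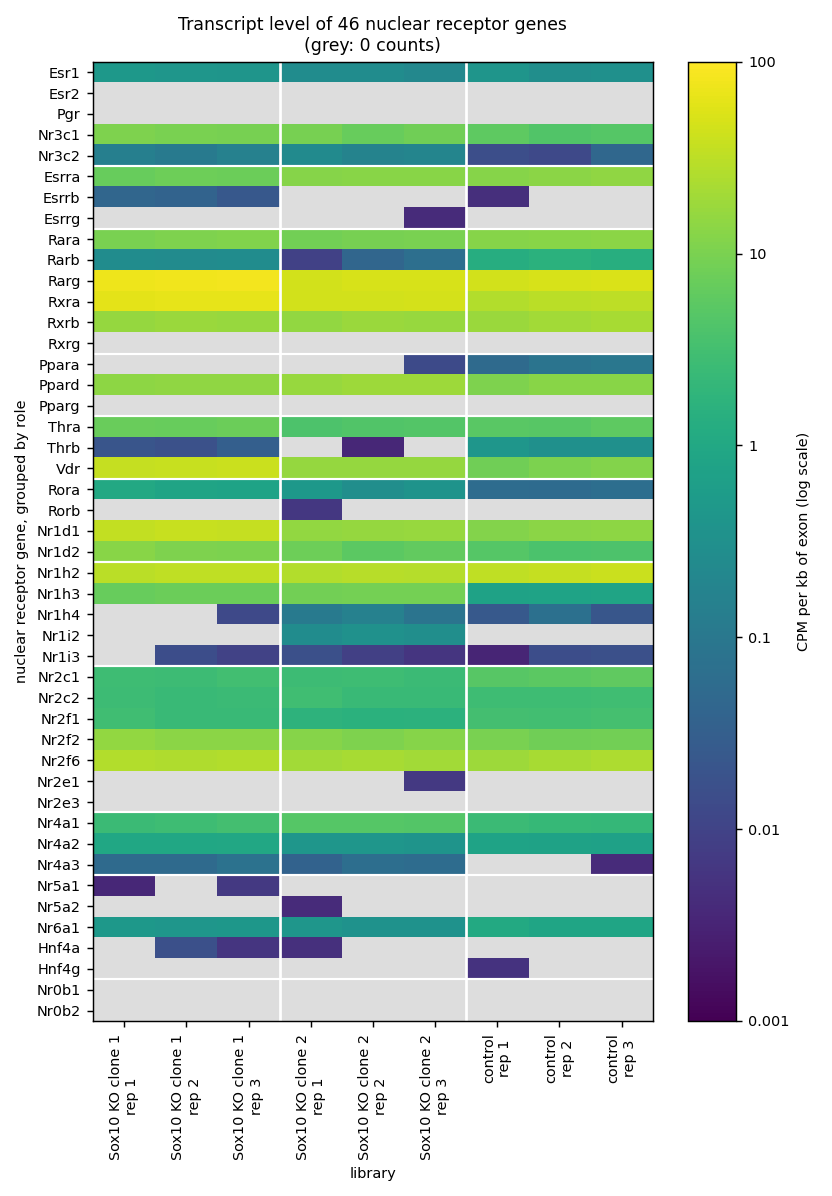
Level of 46 nuclear receptor genes in CPM per kb of exon (colour, log scale; grey, 0 counts) in each of 9 libraries, with clone 1, clone 2 and the control from left to right and genes grouped by role. The bright rows in every group are Rarg, Rxra, Nr1h2 and Nr2f6, 7 rows are grey throughout, and Rarb and Thrb are darker in both clones than in the control.

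Among the 31 tested receptors, 29 were called in clone 1 and 26 in clone 2 (93.5% and 83.9%), beside 76.5% and 74.4% of all genes. Of these, 18 were higher and 11 lower in clone 1 than in the control, and 14 were higher and 12 lower in clone 2, beside 37.9% higher and 38.6% lower of all genes in clone 1 and 37.3% higher and 37.1% lower in clone 2. Both clones were called in the same direction for 21 receptors, beside 58.1% of all genes, of which 12 were higher and 9 lower, against 28.7% and 29.4% of all genes, and in opposite directions for 4, against 4.79% of all genes. A receptor that passes the filter on low counts through 1 group only must differ, so these counts describe the list and are no evidence about it. The median log2 fold change of the tested receptors was 0.31 in clone 1 and -0.06 in clone 2, beside 0.00 and 0.00 for all genes. With genes at 0 counts set to their bound the receptor medians were 0.32 and -0.04. The median size of the change, whatever its sign, was 0.96 and 0.72 on the log2 scale, beside 0.62 and 0.58 for all genes. A log2 fold change of at least 1 in size was called for 15 receptors in clone 1 and 12 in clone 2, where 32.5% and 30.5% of all genes were.

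**Figure D2:**
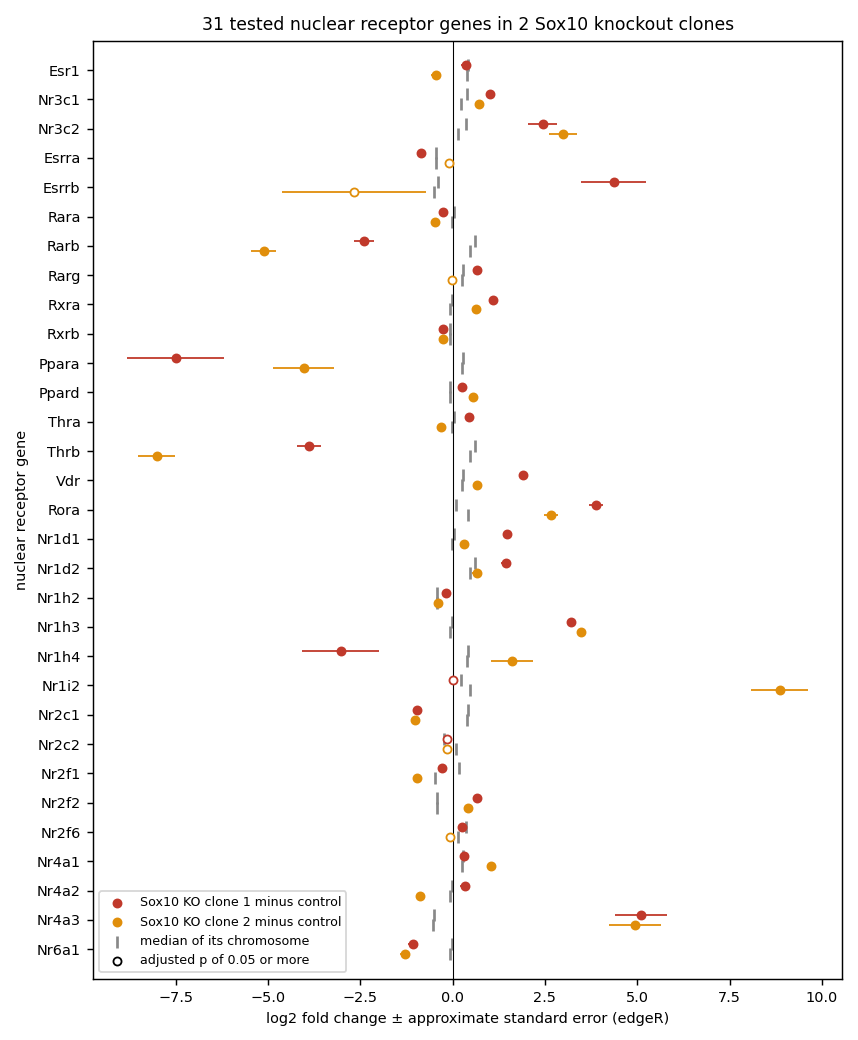
Log2 fold change with its approximate standard error for 31 tested nuclear receptor genes in clone 1 (red) and clone 2 (orange) against the control; open points did not pass at adjusted p under 0.05, and grey ticks mark the median of the gene's chromosome in the same comparison. Nr1h3 and Rora lie far to the right and Rarb and Thrb far to the left in both clones; the fitted values of Ppara, Esrrb and Nr1i2, which had 0 counts in a group, are no bounds.

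The sequences of 3 promoters are shown first because they belong to the receptor genes that lie next to each other on chromosome 14, of which Rarb and Thrb fell and Nr1d2 rose in both clones. Each is the 250 bases before an annotated start, from RefSeq on GRCm38.p6, read 5′ to 3′ on the strand of the gene: Rarb at chr14:16575477-16575726 on the minus strand, Thrb at chr14:17660710-17660959 on the plus strand (the first of its 2 starts) and Nr1d2 at chr14:18239107-18239356 on the minus strand. Capitals mark the motifs that were searched on both strands.
Rarb: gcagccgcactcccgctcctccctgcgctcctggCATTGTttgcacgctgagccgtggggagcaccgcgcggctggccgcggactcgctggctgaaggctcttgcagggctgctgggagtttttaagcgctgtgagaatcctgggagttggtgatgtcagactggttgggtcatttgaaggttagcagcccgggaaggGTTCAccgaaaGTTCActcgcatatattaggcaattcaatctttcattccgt
Thrb: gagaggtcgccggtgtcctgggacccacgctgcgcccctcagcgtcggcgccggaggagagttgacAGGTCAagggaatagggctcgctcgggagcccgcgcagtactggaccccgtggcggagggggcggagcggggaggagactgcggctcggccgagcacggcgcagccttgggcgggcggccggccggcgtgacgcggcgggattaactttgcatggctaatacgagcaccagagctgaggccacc
Nr1d2: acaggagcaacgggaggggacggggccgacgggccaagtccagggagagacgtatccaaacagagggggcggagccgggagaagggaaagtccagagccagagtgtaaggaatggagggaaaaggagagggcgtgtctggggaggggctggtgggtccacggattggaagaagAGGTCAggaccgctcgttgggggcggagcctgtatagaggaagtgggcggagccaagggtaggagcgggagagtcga

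The motifs were the half-site AGGTCA, the direct repeat of GTTCA, any 6 bases and GTTCA again, the SOX core motifs ACAAAG and ACAATG and the E-box CACGTG; none of them contains another. Rarb holds the direct repeat of GTTCA beginning 52 bases before the start, the arrangement known as the retinoic acid response element of this gene, which was present in 22 of 32851 promoters (0.067%). It also holds ACAATG on the other strand, printed as CATTGT, beginning 216 bases before the start, as do 10.7% of all promoters. Thrb and Nr1d2 hold AGGTCA beginning 184 and 77 bases before the start, as do 4607 of 32851 promoters. Over the 42 receptor genes with a promoter in the table, 11 of 63 promoters held AGGTCA (17.5%), 6 held ACAAAG (9.52%, beside 16.5% of all promoters), 5 held ACAATG (7.94%) and 5 held CACGTG (7.94%, beside 6.02%). A match of letters is a description and not a binding site.

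Retinoid receptors include Rarg and Rxra, and their members moved in both directions. Rarb, the beta receptor of retinoic acid (Entrez ID 218772; chromosome 14, 16430839 to 16819156 on GRCm38, minus strand), had 1.40, 1.35 and 1.42 CPM in libraries of clone 1, 0.0480, 0.238 and 0.358 CPM in libraries of clone 2 and 6.86, 8.15 and 7.14 CPM in the control. All 6 knockout libraries were below all control libraries, and those of clone 2 were below those of clone 1. Its log2 fold change was -2.41 ± 0.27 in clone 1 and -5.11 ± 0.34 in clone 2 (approximate SE; adjusted p = 8.12e-06 and 8.61e-08 in edgeR), and -5.71 in clone 2 without clone 2 replicate 3. By annotation 1793 exon bases of Rarb (34.1%) are shared with Top2b on the opposite strand, and the sources used here do not give the strand setting of the counting; Top2b averaged 124 CPM in clone 1, 63.4 CPM in clone 2 and 47.2 CPM in the control.

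Rxra (chromosome 2, 27676440 to 27762957, plus strand) had 342, 349 and 362 CPM in libraries of clone 1, 250, 254 and 264 CPM in libraries of clone 2 and 148, 168 and 177 CPM in the control. The 3 groups did not overlap, and clone 1 was the highest. The log2 fold change was 1.09 ± 0.06 in clone 1 and 0.64 ± 0.06 in clone 2 (adjusted p = 2.56e-08 and 2.86e-06). Rarg averaged 329 ± 15.9 CPM in clone 1, 208 ± 10.2 CPM in clone 2 and 209 ± 16.7 CPM in the control, and it rose in clone 1 (log2 fold change 0.65) without passing in clone 2 (-0.01, adjusted p = 0.869). The alpha receptor Rara fell in both clones (log2 fold changes -0.27 and -0.47), and Rxrb, another RXR subtype, fell with -0.26 and -0.27.

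Genes that carry, make or break down retinoids were called in both directions: of 10 tested, 4 were higher and 6 lower in clone 1, and 3 were higher and 6 lower in clone 2, with a median log2 fold change of -0.39 and -0.77. For this list and those below, the shares of all genes were 37.9% higher and 38.6% lower in clone 1. In clone 2 they were 37.3% higher and 37.1% lower. Crabp2, which carries retinoic acid to its receptors, averaged 267 ± 6.72 CPM in clone 1, 158 ± 4.24 CPM in clone 2 and 7.23 ± 1.39 CPM in the control. Cyp26b1, an enzyme that breaks down retinoic acid, averaged 49.0 ± 1.59 CPM in clone 1, 88.0 ± 1.72 CPM in clone 2 and 10.3 ± 0.265 CPM in the control. Dhrs9, a retinol dehydrogenase, rose (log2 fold changes 1.69 and 2.09).

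Of the thyroid hormone and vitamin D receptors, Thrb, the beta receptor of thyroid hormone (Entrez ID 21834; chromosome 14, 17660261 to 18038090, plus strand), had 10, 10 and 17 counts in libraries of clone 1, 0, 2 and 0 counts in libraries of clone 2 and 213, 177 and 190 counts in the control. The knockout libraries lay far below the control, and clone 2 lay below clone 1. This was 14.8-fold lower in clone 1 (95% counting interval 10.6 to 21.3) and 307-fold lower in clone 2 (84.6 to 2540), with adjusted p = 5.78e-07 and 4.66e-08. The fitted log2 fold change in clone 2 was -8.01, and -10.61 without clone 2 replicate 2, the library that holds its 2 counts. Thrb passed the filter on low counts through the control, its highest group, so its fall is in part built in. The alpha receptor gene Thra had 33.5, 31.9 and 34.4 CPM in libraries of clone 1, 18.4, 19.9 and 21.1 CPM in libraries of clone 2 and 23.7, 23.4 and 26.1 CPM in the control. It lay above the control in clone 1 and below it in clone 2, with log2 fold changes of 0.45 ± 0.07 and -0.30 ± 0.07 (adjusted p = 0.000148 and 0.0028).

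Vdr (Entrez ID 22337; chromosome 15, 97854425 to 97910630, minus strand) had 208, 214 and 221 CPM in libraries of clone 1, 89.4, 91.7 and 91.2 CPM in libraries of clone 2 and 45.7, 59.1 and 67.3 CPM in the control. The groups did not overlap. The log2 fold change was 1.90 ± 0.11 in clone 1 and 0.66 ± 0.11 in clone 2 (adjusted p = 2.28e-08 and 0.000163), and chromosome 15 as a whole had medians of 0.29 and 0.25. Of the 6 genes of vitamin D handling and response 2 could be tested, which are named for that reason alone. Cyp27b1, the enzyme that makes active vitamin D, passed in neither clone (log2 fold change 0.79, adjusted p = 0.178 in clone 1, and 1.01, adjusted p = 0.087 in clone 2). The calcium channel gene Trpv6 did not pass in clone 1 (-0.15, adjusted p = 0.734) and fell in clone 2 (-1.48, adjusted p = 0.00771). Cyp24a1, the enzyme that breaks down vitamin D, had 0 counts in all 9 libraries.

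Of 4 tested genes of thyroid hormone handling and response, 3 were higher and 1 lower in clone 1, and 1 was higher and 1 lower in clone 2, with medians of 1.62 and -0.10. Hr, the corepressor gene hairless, a known target of thyroid hormone in brain, averaged 273 ± 12.7 CPM in clone 1, 153 ± 8.57 CPM in clone 2 and 13.4 ± 0.836 CPM in the control.

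Some genes of this family lie in paralogous clusters, of which those on chromosomes 14 and 11 are described here. On chromosome 14 Rarb, Thrb and Nr1d2 were the 3 tested genes within a stretch of 1808.3 kb, and their log2 fold changes were -2.41, -3.88 and 1.45 in clone 1, against -5.11, -8.01 and 0.65 in clone 2. The median over 461 tested genes of that chromosome was 0.61 in clone 1 and 0.48 in clone 2, so Rarb and Thrb fell on a chromosome whose median was above 0. On chromosome 11 Thra, Nr1d1 and Rara lie within 234.3 kb, with log2 fold changes of 0.45, 1.47 and -0.27 in clone 1 and -0.30, 0.32 and -0.47 in clone 2, beside chromosome medians of 0.03 and 0.00. Thra and Nr1d1 overlap tail to tail on opposite strands in 263 exon bases, which is 8.55% of the exons of Nr1d1 and 5.70% of those of Thra, so reads in that stretch could not be assigned without strand. The part of chromosome-wide shifts in single receptors was not tested.

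**Figure D3:**
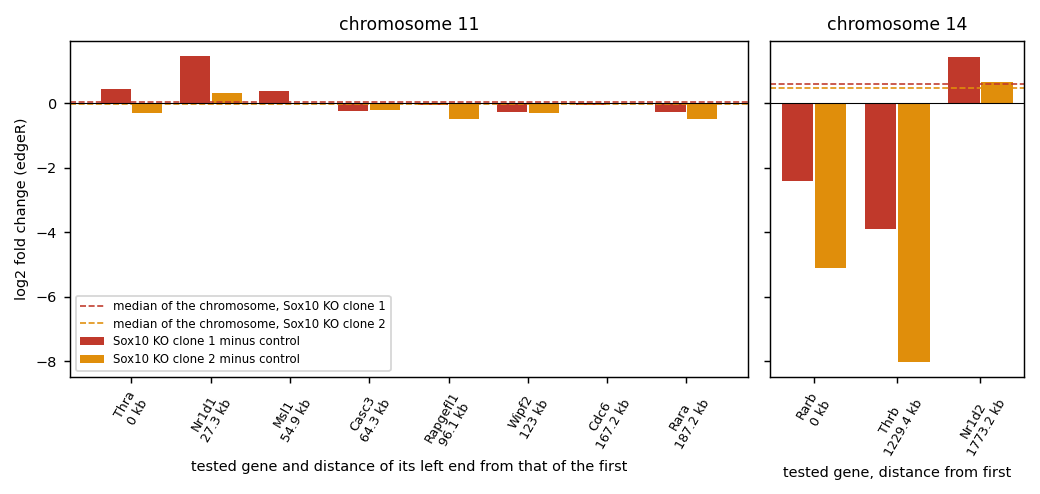
Log2 fold change in clone 1 (red) and clone 2 (orange) against the control for the tested genes between Thra and Rara on chromosome 11 and between Rarb and Nr1d2 on chromosome 14, ordered by distance; dashed lines are the medians of all tested genes of the chromosome. Rarb and Thrb reach -5.11 and -8.01 in clone 2 beside Nr1d2 at 0.65, while the genes of the chromosome 11 cluster stay between -0.48 and 1.47.

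The receptors tied to the circadian clock rose in both clones. Rora, a constitutive activator that competes with REV-ERB for the same motif (Entrez ID 19883; chromosome 9, 68653786 to 69388246, plus strand), had 13.6, 11 and 10.2 CPM in libraries of clone 1, 6.09, 3.92 and 4.82 CPM in libraries of clone 2 and 0.780, 0.730 and 0.828 CPM in the control. Each knockout library was above each control library, and clone 1 was above clone 2. The log2 fold change was 3.89 ± 0.19 in clone 1 and 2.66 ± 0.19 in clone 2 (adjusted p = 6.51e-09 and 1.88e-07).

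Nr1d1, which encodes the haem-binding repressor REV-ERB alpha, had 105, 117 and 113 CPM in libraries of clone 1, 47.9, 50.3 and 52.9 CPM in libraries of clone 2 and 36.6, 41.6 and 42.9 CPM in the control. Nr1d2, which encodes REV-ERB beta, had 69.9, 58.4 and 56.1 CPM in libraries of clone 1, 42.3, 29.5 and 34.4 CPM in libraries of clone 2 and 25.8, 20.4 and 21.4 CPM in the control. For both genes the 3 groups did not overlap and clone 1 was the highest. The log2 fold changes of Nr1d1 were 1.47 ± 0.07 and 0.32 ± 0.07 (adjusted p = 5.71e-09 and 0.00174), and those of Nr1d2 were 1.45 ± 0.14 and 0.65 ± 0.14 (adjusted p = 1.83e-06 and 0.00108). Of 13 tested genes of the clock, 9 were higher and 2 lower in each clone, with medians of 0.39 and 0.55. In both clones 7 were higher and 2 lower, beside 28.7% and 29.4% of all genes. Ciart, a repressor under clock control, averaged 2.81 ± 0.445 CPM in clone 1, 4.20 ± 0.552 CPM in clone 2 and 0.338 ± 0.129 CPM in the control. Nfil3, a repressor that binds the D-box of clock-controlled genes, rose (log2 fold changes 1.90 and 1.87), and Clock, the partner of BMAL1, with 2.40 and 0.98. Bhlhe41, a repressor of E-box genes, fell with -1.53 and -1.60. The labels give no harvest time, so its part in these genes was not tested.

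**Figure D4:**
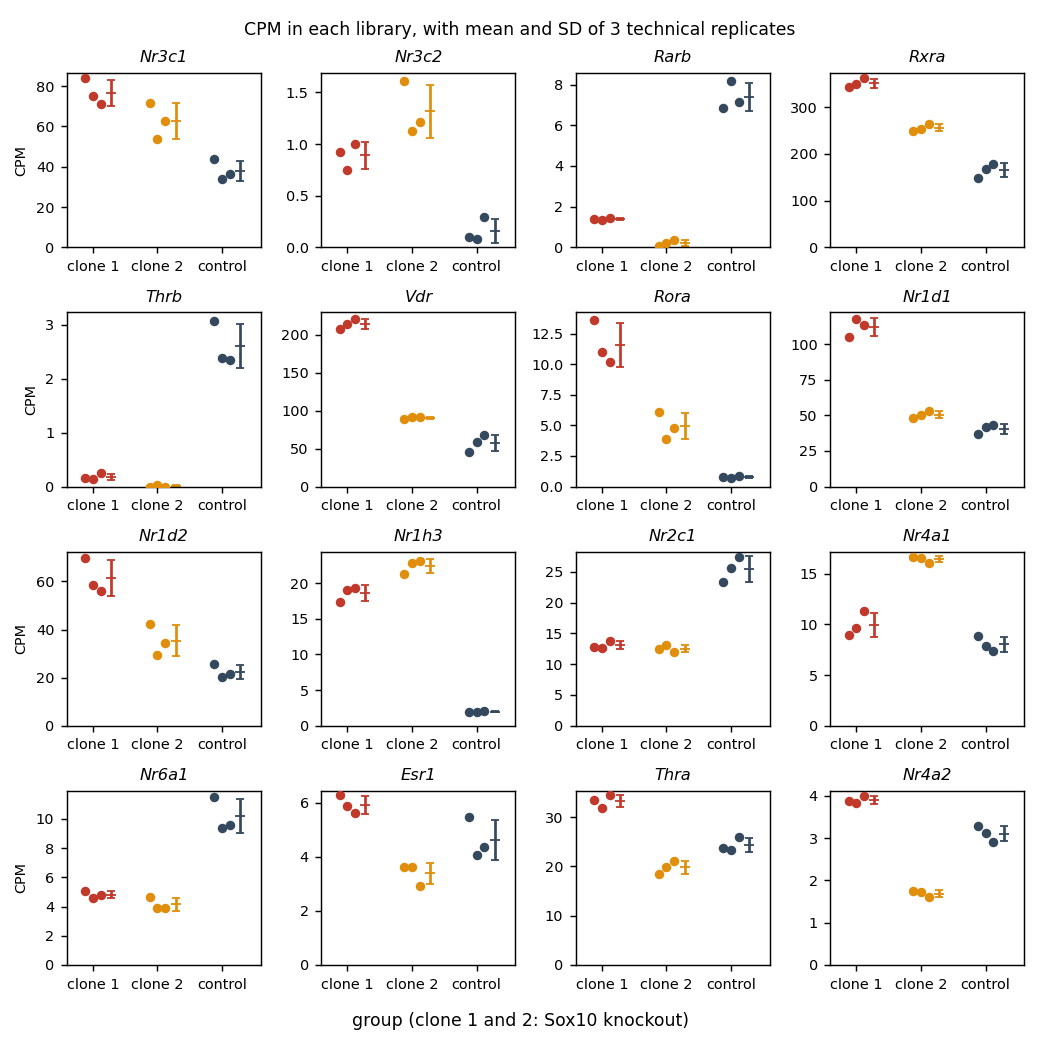
CPM of 16 nuclear receptor genes in each library (points) of clone 1 (red), clone 2 (orange) and the control (dark), with the mean and SD of 3 technical replicates beside them; every axis starts at 0. Rora reaches 10.2 to 13.6 CPM in clone 1 and at most 0.828 CPM in the control, and Rarb and Thrb are near 0 in clone 2.

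The oxysterol receptors differed from each other. Nr1h3, which encodes LXR alpha, a sensor of oxysterols that activates cholesterol export (Entrez ID 22259; chromosome 2, 91184061 to 91202834, minus strand), had 17.3, 19.04 and 19.4 CPM in libraries of clone 1, 21.3, 22.8 and 23.1 CPM in libraries of clone 2 and 1.92, 1.97 and 2.09 CPM in the control. Every knockout library was above every control library. The log2 fold change was 3.22 ± 0.09 in clone 1 and 3.49 ± 0.09 in clone 2 (adjusted p = 3.74e-11 and 2e-11), and it was the receptor with the smallest p in both. Its paralog Nr1h2, which encodes LXR beta, averaged 108 ± 5.51 CPM in clone 1, 92.4 ± 4.71 CPM in clone 2 and 122 ± 10.3 CPM in the control. The libraries of clone 1 overlapped those of the control, and those of clone 2 did not. It fell (log2 fold changes -0.18 and -0.40), but the call in clone 1 did not hold on leaving out control replicate 2 (-0.18) or 3 (-0.12), clone 1 replicate 1 (-0.13) or 3 (-0.19), clone 2 replicate 3 (-0.18) and with a minimum count of 50 (-0.16).

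Of 8 tested LXR response genes, 3 were higher and 4 lower in clone 1, and 2 were higher and 4 lower in clone 2, with medians of -0.21 and -0.32. Abca1, the exporter of cholesterol, averaged 86.8 ± 3.82 CPM in clone 1, 79.9 ± 3.64 CPM in clone 2 and 2.39 ± 0.390 CPM in the control. Scd1, a fatty acid desaturase, rose (log2 fold changes 1.34 and 1.65). The lipid synthesis genes Fasn and Scd2 fell, with -1.25 and -1.31 for Fasn and -0.66 and -0.88 for Scd2. Srebf1, the regulator of fatty acid synthesis, was called in opposite directions, at 0.25 in clone 1 and -0.38 in clone 2.

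The bile acid and xenobiotic receptors were low. Nr1i2, which encodes the pregnane X receptor of liver and gut, had 0 counts in all libraries of clone 1, 57, 66 and 60 counts in libraries of clone 2 and 0 counts in all libraries of the control. Clone 2 was thus at least 57.7-fold above the control and at least 54.5-fold above clone 1, at a mean of 0.775 ± 0.0951 CPM. Nr1i2 passed the filter on low counts through clone 2, so these differences are largely built in. Nr1h4, the bile acid receptor FXR, had 0, 0 and 2 counts in libraries of clone 1, 22, 28 and 15 counts in libraries of clone 2 and 4, 12 and 4 counts in the control. Nr1h4 passed the filter on low counts through clone 2, so a rise there is largely built in. It was 9.46-fold lower in clone 1 (95% counting interval 2.30 to 83.4; adjusted p = 0.0199) and 3.07-fold higher in clone 2 (1.84 to 5.35; adjusted p = 0.0251). Neither call was stable: in clone 1 it did not hold on leaving out control replicate 2 (log2 fold change -2.32) or clone 1 replicate 1 (-2.56) or 2 (-2.48), and the value was -5.78 when clone 1 replicate 3 was left out. In clone 2 the call was lost in DESeq2 (1.60), with no filter on low counts (1.60) and when leaving out control replicate 1 (1.36) or 3 (1.29) or clone 2 replicate 2 (1.30), and without replicate 1 of every group (1.41); it held at 2.32 without control replicate 2, against 1.60 with all libraries. Nr1i3, the other xenobiotic receptor, shares 74.9% of its exon bases with Tomm40l on the opposite strand; it had at most 6 counts in a library, while Tomm40l averaged 9.38 to 16.5 CPM.

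Steroid receptors were the glucocorticoid, mineralocorticoid and oestrogen alpha receptors. Nr3c1, the glucocorticoid receptor gene, had 83.8, 75.2 and 71.1 CPM in libraries of clone 1, 71.5, 53.9 and 62.8 CPM in libraries of clone 2 and 43.7, 33.9 and 36.3 CPM in the control. Both clones lay above the control, and they overlapped each other. The log2 fold change was 1.01 ± 0.12 in clone 1 and 0.72 ± 0.12 in clone 2 (adjusted p = 9.16e-06 and 0.000148), beside chromosome medians of 0.38 and 0.24. Nr3c2, the mineralocorticoid receptor gene, had 0.925, 0.748 and 1.00 CPM in libraries of clone 1, 1.61, 1.13 and 1.21 CPM in libraries of clone 2 and 0.101, 0.0811 and 0.297 CPM in the control. No knockout library reached down to the control, and the log2 fold change was 2.43 ± 0.40 in clone 1 and 3.00 ± 0.38 in clone 2 (adjusted p = 0.000162 and 2.42e-05). Without control replicate 3, the highest of the control libraries, the values were 3.26 and 3.83. Nr3c2 passed the filter on low counts through the clones, so its rise is in part built in.

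Esr1, the oestrogen receptor alpha gene, had 6.28, 5.87 and 5.63 CPM in libraries of clone 1, 3.63, 3.61 and 2.93 CPM in libraries of clone 2 and 5.48, 4.07 and 4.35 CPM in the control. The 3 groups did not overlap. It was above the control in clone 1 (log2 fold change 0.36 ± 0.14, adjusted p = 0.0352) and below it in clone 2 (-0.45 ± 0.14, adjusted p = 0.0131), on a chromosome with medians of 0.41 and 0.39. Its difference between the clones was -0.81 ± 0.14 (adjusted p = 0.000507). The call in clone 1 was lost with total counts in place of TMM (0.34) and when leaving out control replicate 2 (0.26) or 3 (0.30), clone 1 replicate 1 (0.32) or 2 (0.37); the call in clone 2 was lost when leaving out clone 2 replicate 3 (-0.35).

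Genes known to respond to glucocorticoids were mostly higher. Of 14 tested, 11 were higher and 3 lower in clone 1, and 8 were higher and 4 lower in clone 2, with medians of 0.80 and 0.39, beside 0.00 and 0.00 for all genes. The metallothionein genes Mt1 and Mt2 also respond to metals. Mt1 averaged 2258 ± 126 CPM in clone 1, 740.1 ± 22.0 CPM in clone 2 and 138 ± 24.8 CPM in the control, and Mt2 averaged 2098 ± 42.5 CPM in clone 1, 876 ± 52.8 CPM in clone 2 and 98.1 ± 8.44 CPM in the control. Tsc22d3, which encodes GILZ, averaged 208 ± 7.79 CPM in clone 1, 192 ± 4.04 CPM in clone 2 and 76.6 ± 5.86 CPM in the control. Zbtb16, a zinc-finger factor, rose (log2 fold changes 1.77 and 1.66). Ddit4, an inhibitor of mTOR signalling, was called in opposite directions, at 0.30 and -0.27. Hsd11b1, which makes active glucocorticoid from its inert form, averaged 8.47 ± 0.226 CPM in clone 1, 11.9 ± 0.789 CPM in clone 2 and 1.19 ± 0.183 CPM in the control. It belongs to a list of 6 tested genes of steroid metabolism, of which 2 were higher and 3 lower in clone 1 and 3 higher and 1 lower in clone 2 (medians -0.03 and 0.33). In that list Srd5a1, a steroid reductase, fell with -0.86 and -1.59, and Hsd17b4, a peroxisomal enzyme, rose with 0.34 and 0.38.

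Of 9 chaperones of steroid receptors, 3 were higher and 6 lower in clone 1, and 3 were higher and 5 lower in clone 2, with medians of -0.39 and -0.34. Hsp90ab1, the constitutive HSP90, averaged 3723 ± 166 CPM in clone 1, 3592 ± 81.6 CPM in clone 2 and 5126 ± 277 CPM in the control. Stip1, which links HSP70 to HSP90, fell (log2 fold changes -0.50 and -0.56), and the co-chaperone gene Ptges3 rose with 0.61 and 0.42. Hsp90aa1, the inducible HSP90, fell with -0.53 and -0.62; its call in clone 1 did not hold on leaving out clone 1 replicate 2 (-0.47) or 3 (-0.44), and the value was -0.34 without control replicate 1. Of 5 tested genes of oestrogen and progesterone response, 2 were higher and 2 lower in each clone (medians -0.37 and 0.42). Wnt4 and Xbp1 rose, at log2 fold changes of 3.91 and 3.06 for the ligand gene Wnt4 and 0.94 and 0.80 for the secretory regulator Xbp1. Areg, an EGF receptor ligand, fell with -1.42 and -0.89 and Ccnd1, cyclin D1, with -0.78 and -0.29.

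The oestrogen-related receptors bind no oestrogen and act with PGC-1 coactivators on mitochondrial genes. Esrra averaged 32.7 ± 2.12 CPM in clone 1, 55.9 ± 0.678 CPM in clone 2 and 59.5 ± 5.82 CPM in the control. It fell in clone 1, with a log2 fold change of -0.86 ± 0.08 (adjusted p = 9.45e-07), and did not pass in clone 2 (-0.09, adjusted p = 0.299). Without control replicate 1 it passed in clone 2 as well (-0.18), and without replicate 1 of every group likewise (-0.16). Esrrb, known for its role in embryonic stem cells, had 18, 18 and 10 counts in libraries of clone 1, 0 counts in clone 2 and 2, 0 and 0 counts in the control. It was 24.3-fold higher in clone 1 than in the control (95% counting interval 6.36 to 207; adjusted p = 0.00143) and at least 17.2-fold lower in clone 2 than in clone 1; no fold is given for clone 2 against the control, since both were at or under the floor of 3 counts. Its fitted log2 fold change in clone 1 was 4.36, and 7.06 without control replicate 1, the library that holds the 2 control counts. Esrrb passed the filter on low counts through clone 1, so its rise there is largely built in and is no evidence.

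The coactivator list was called at 69.2% in each clone, below the 76.5% and 74.4% of all genes. Of its 13 genes, 7 were higher and 2 lower in each clone (medians 0.21 and 0.12). In both clones 6 were higher and 1 lower, beside 28.7% and 29.4% of all genes. Ppargc1b, the PGC-1 beta coactivator, averaged 8.79 ± 0.511 CPM in clone 1, 11.3 ± 0.594 CPM in clone 2 and 0.499 ± 0.0197 CPM in the control. Ppargc1a, the PGC-1 alpha coactivator, averaged 6.43 ± 0.663 CPM in clone 1, 5.87 ± 0.476 CPM in clone 2 and 2.02 ± 0.290 CPM in the control. Pprc1, another gene of that family, fell (log2 fold changes -0.79 and -0.69), and the acetyltransferase gene Kat2b rose with 0.90 and 0.71. Of 8 corepressor genes, 2 were higher and 5 lower in clone 1 and 1 was higher and 5 lower in clone 2 (medians -0.39 in each). Nrip1, which represses ligand-bound receptors, averaged 31.3 ± 3.45 CPM in clone 1, 20.98 ± 1.92 CPM in clone 2 and 62.9 ± 4.85 CPM in the control. Lcor, another corepressor of ligand-bound receptors, fell with -1.06 and -1.10. Tbl1xr1, a subunit of corepressor complexes, rose with 1.04 and 0.51.

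**Figure D5:**
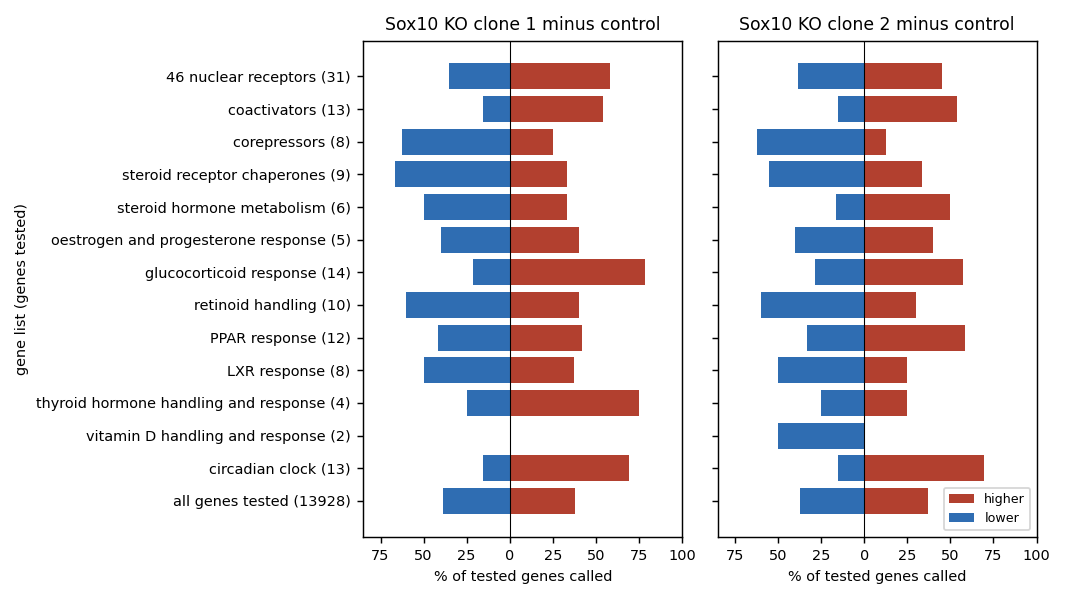
Share of tested genes called higher (red, right) and lower (blue, left) at adjusted p under 0.05 in clone 1 and clone 2 against the control, for the nuclear receptors, 12 lists of genes that work with them and all genes tested; the number tested is in brackets. Of the 14 glucocorticoid response genes 11 and 8 were higher, and of the 13 clock genes 9 and 9, beside 37.9% and 37.3% of all genes.

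The PPARs, sensors of fatty acids, were represented by Ppard, since Pparg had 0 counts and Ppara was scarce. Ppard, the widely expressed delta subtype, averaged 109 ± 2.14 CPM in clone 1, 134 ± 6.96 CPM in clone 2 and 91.9 ± 7.82 CPM in the control, and rose with log2 fold changes of 0.25 ± 0.07 and 0.54 ± 0.07 (adjusted p = 0.00477 and 1.54e-05). Ppara, which drives fatty acid oxidation in liver, had 0 counts in clone 1, 0, 0 and 4 counts in libraries of clone 2 and 14, 24 and 30 counts in the control. Clone 1 lay at least 21.4-fold below the control and clone 2 17.99-fold below it (95% counting interval 6.71 to 67.9). The fitted log2 fold change in clone 2 was -4.03, and -7.49 without clone 2 replicate 3, the library that holds the 4 counts. Ppara passed the filter on low counts through the control, so its fall is largely built in. Of 12 tested PPAR response genes, 5 were higher and 5 lower in clone 1, and 7 were higher and 4 lower in clone 2 (medians 0.03 and 0.61). Cpt1a, which admits fatty acids to mitochondria, averaged 181 ± 7.88 CPM in clone 1, 111 ± 5.13 CPM in clone 2 and 46.9 ± 4.88 CPM in the control. The fatty acid carrier gene Fabp4 rose with 2.68 and 3.83, and the lipid droplet gene Plin2 fell with -1.27 and -0.89. Lpl, the lipoprotein lipase gene, was called in opposite directions, with 1, 4 and 12 counts in libraries of clone 1, 2628, 2045 and 2051 counts in libraries of clone 2 and 47, 23 and 64 counts in the control. Its log2 fold change in clone 1 was -2.87, and -4.02 without clone 1 replicate 3. The peroxisomal enzyme gene Ehhadh was lower in clone 1 (-1.37) and higher in clone 2 (1.01).

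The NR4A receptors are early-response genes without a known classical ligand. Nr4a1, which encodes NUR77, had 8.95, 9.66 and 11.3 CPM in libraries of clone 1, 16.7, 16.5 and 16.1 CPM in libraries of clone 2 and 8.84, 7.91 and 7.38 CPM in the control. Clone 2 stood apart from both other groups, with a log2 fold change of 1.03 ± 0.10 (adjusted p = 2.99e-06), while the smaller rise in clone 1 (0.31, adjusted p = 0.0176) did not hold on leaving out control replicate 2 (0.29) or 3 (0.24) or clone 1 replicate 3 (0.21). Nr4a2, which encodes NURR1, had 3.87, 3.82 and 3.998 CPM in libraries of clone 1, 1.74, 1.72 and 1.60 CPM in libraries of clone 2 and 3.28, 3.12 and 2.92 CPM in the control. It was called higher in clone 1 (0.33 ± 0.12, adjusted p = 0.0234) and lower in clone 2 (-0.88 ± 0.12, adjusted p = 4.34e-05), and the groups did not overlap. The call in clone 1 did not hold on leaving out control replicate 2 (0.32) or 3 (0.27) or clone 1 replicate 3 (0.31). Nr4a3, which encodes NOR1, had 21, 24 and 32 counts in libraries of clone 1, 19, 29 and 28 counts in libraries of clone 2 and 0, 0 and 2 counts in the control, which was 40.7-fold higher in clone 1 (95% counting interval 10.9 to 342) and 35.9-fold higher in clone 2 (9.61 to 302). Its fitted log2 fold changes of 5.11 and 4.94 were 7.76 and 7.58 without control replicate 3, the library with the 2 counts. Nr4a3 passed the filter on low counts through the clones and not the control, so its rise is largely built in.

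The NR2 and NR6 groups hold orphan receptors. Nr2c1, which encodes TR2, had 12.8, 12.6 and 13.8 CPM in libraries of clone 1, 12.5, 13.1 and 11.99 CPM in libraries of clone 2 and 23.3, 25.6 and 27.4 CPM in the control. The clones overlapped each other and lay below the control, with log2 fold changes of -0.96 ± 0.08 and -1.02 ± 0.08 (adjusted p = 6.46e-07 and 3.87e-07) on a chromosome with medians of 0.41 and 0.39. Its paralog Nr2c2, which encodes TR4, averaged 38.2 ± 1.34 CPM in clone 1, 38.3 ± 3.95 CPM in clone 2 and 42.2 ± 0.724 CPM in the control and was the only tested receptor that passed in neither clone (-0.14 in each). With the replicate number as a block it passed in both (-0.145, adjusted p = 0.019 in clone 1 and -0.143, adjusted p = 0.0208 in clone 2), and it also passed in both in DESeq2 (-0.16 each) and with RLE size factors (-0.16 each). Without replicate 1 of every group it also passed in both (-0.17 and -0.24), and likewise on leaving out clone 2 replicate 1 (-0.14 and -0.23). In clone 1 it passed as well when clone 1 and the control alone were fitted (-0.145). By annotation 30.7% of its exon bases are shared with Mrps25 on the opposite strand.

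Nr6a1, which encodes the germ cell nuclear factor, had 5.07, 4.58 and 4.82 CPM in libraries of clone 1, 4.65, 3.89 and 3.91 CPM in libraries of clone 2 and 11.5, 9.41 and 9.62 CPM in the control. Both clones lay below the control, with log2 fold changes of -1.08 ± 0.12 and -1.29 ± 0.12 (adjusted p = 5.94e-06 and 1.34e-06). The COUP-TF genes moved apart: Nr2f1 (COUP-TFI) averaged 13.4 ± 1.47 CPM in clone 1, 8.36 ± 0.334 CPM in clone 2 and 16.4 ± 0.843 CPM in the control, and Nr2f2 (COUP-TFII) averaged 122 ± 7.95 CPM in clone 1, 102 ± 8.65 CPM in clone 2 and 76.9 ± 5.92 CPM in the control. Nr2f1 fell (log2 fold changes -0.29 and -0.97), the first of which did not hold on leaving out clone 1 replicate 2 (-0.24) or 3 (-0.25), on a chromosome with medians of 0.17 and -0.48. Nr2f2 rose with 0.67 and 0.41 on a chromosome with medians of -0.43 and -0.42. Nr2f6 (EAR2) rose in clone 1 alone by the threshold (0.26; -0.06 in clone 2), and that call did not hold on leaving out control replicate 1 (0.15) or clone 1 replicate 3 (0.24); without control replicate 1 it was instead called lower in clone 2 (-0.20), as it was without replicate 1 of every group (-0.14). Its exons share 54.4% of their bases with Ocel1 on the opposite strand.

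The clones were also compared with each other. Of 31 tested receptors, 24 differed, 6 of them higher and 18 lower in clone 2 than in clone 1, beside 30.1% higher and 27.5% lower of all genes, with a median log2 fold change of -0.25. Among those that reached 10 CPM in a clone, Vdr (-1.24 ± 0.11), Rora (-1.23 ± 0.16) and Nr1d1 (-1.15 ± 0.07) had the largest values, and all 3 were lower in clone 2. With a threshold of 1 on the log2 scale (glmTreat), 5 receptors differed, beside 8.52% of all genes: Rarb (-2.70 ± 0.37, and -3.30 without clone 2 replicate 3), Thrb, Esrrb, Nr1h4 and Nr1i2. Esrrb passed the filter on low counts through clone 1, and Nr1h4 and Nr1i2 through clone 2, so their difference is largely built in. Only Rarb of the receptors that differed had 1 CPM or more in a clone. Thrb was 20.7-fold lower in clone 2 than in clone 1 (95% counting interval 5.34 to 177), and Nr1h4 was 29.0-fold higher (7.72 to 245). The fitted log2 values of Thrb and Nr1h4 moved with 1 library: Thrb was at -4.13, and -6.73 without clone 2 replicate 2, and Nr1h4 at 4.64, and 7.38 without clone 1 replicate 3. The smaller differences of Nr3c1 (-0.29), Rara (-0.20), Nr1h2 (-0.22), Nr1h3 (0.27) and Nr2f2 (-0.25) each lost their call without at least 1 library: Nr3c1 without control replicate 3, clone 1 replicate 1 or 2 or clone 2 replicate 2 or 3, and with total counts, at -0.22 to -0.30; Rara without clone 1 replicate 2 or 3 or clone 2 replicate 1, at -0.16 to -0.19; Nr1h2 without clone 1 replicate 2 or 3 or clone 2 replicate 1 or 3, at -0.18 to -0.22; Nr1h3 without clone 2 replicate 2 (0.23); and Nr2f2 without clone 1 replicate 1 (-0.20).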

How the data were processed

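RNA-seq libraries (polyA-enriched, stranded, per the labels' protocols) of 3 groups were compared. The deposited values are raw counts per Entrez gene; fastp, Subread, DESeq2 and the builds mm10 and GRCm38 are named in the submitters' processing notes, and the sources used here give neither versions nor the strand setting of counting. Symbols, coordinates and exon lengths came from the reference tables (24570 genes with a symbol, 21357 with an exon length); genes without a symbol held at most 0.202% of a library and were kept in the fit.

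Counts were fitted in edgeR 4.0.16 (R 4.3.3, limma 3.58.1): filterByExpr with a minimum count of 10, TMM, 1 factor of 3 groups over all 9 libraries, quasi-likelihood test, Benjamini-Hochberg adjustment over 13928 genes, threshold 0.05. The approximate SE is the size of the log2 fold change over the square root of F. CPM is relative to the TMM-scaled library size. Where a group had under 10 counts, the fold is a ratio of summed counts with an exact 95% interval; against 0 counts it is a bound from a floor of 3 counts over the group. Intervals and floors cover counting error only. Replicates differed by more than counting noise, so none was a copy of another. Deviations of same-numbered libraries of different groups correlated at r 0.265 to 0.787 over 9980 genes, and those of other pairs at -0.734 to 0.621. The highest were the pairs of replicate 1 (0.757, 0.766 and 0.787). Replicates 2 and 3 were not clearly paired by number: control replicate 3 was at 0.586 with clone 2 replicate 2 and at 0.265 with clone 2 replicate 3. The replicate block was an alternative, as were DESeq2 1.42.0, RLE or total-count scaling, other filters, glmTreat, 2-group fits and leaving out libraries. On simulated counts (clone 1 against the control, 13231 genes) the fit recovered 45 of 67 genes with a 1.5-fold change, 62 of 67 with a 2-fold and 65 of 66 with a 4-fold change, with 6 false among 178 calls. Only these few genes were changed there, in clone 1 alone, with the spread of the technical replicates. In the data 76.5% of genes passed in clone 1, so these rates do not carry over to the data.

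Values by library are given for receptors of at least 1 CPM that passed with a log2 fold change of at least 1 in size, for those called in opposite directions and for those that differed between clones in glmTreat. From each companion list up to 4 genes called alike and up to 2 called oppositely are named. Receptors and lists were chosen with earlier results of these data known. Fkbp5, Per1 and Klf9 stand in 2 lists each. Some named genes of these lists are not reported here, though they stay in the counts.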

Additional observations from a re-analysis of the deposited data

Results flagged for a closer look

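The level of 5 receptor genes differed between the clones by a test of clone 2 minus clone 1 (glmTreat in edgeR at a log2 fold change of 1). The log2 difference of clone 2 minus clone 1 was -2.70 for Rarb, -4.13 for Thrb, -7.03 for Esrrb, 4.64 for Nr1h4 and 8.86 for Nr1i2. Esrrb had 0 counts in clone 2 and Nr1i2 had 0 counts in clone 1 and in the control, so their fitted values are no bounds. Esrrb passed the filter on low counts through clone 1, and Nr1h4 and Nr1i2 through clone 2. Their difference between the clones is thus largely built in and is no evidence. Each knockout is 1 clone, so a difference between clones and a difference between their libraries' cultures cannot be told apart.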

How the results depend on the processing

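Of 3128 alternative values of named genes other than those of glmTreat, 3051 kept their direction and their side of the threshold, 48 lost a call, 16 gained one and 13 changed sign. With glmTreat the receptors called were 11 in clone 1, 9 in clone 2, 7 with the same sign in both and 5 between the clones. The genes called were 3580 in clone 1 (25.7% of those tested), 3388 in clone 2 (24.3%) and 8.52% between the clones. No share of all genes was taken for the same sign. A larger effect is asked for by construction. Leaving out 1 library at a time gave 24 to 30 receptors in clone 1, 25 to 27 in clone 2, 18 to 22 with the same sign and 21 to 24 between the clones, and 10129 to 10843 and 9886 to 10544 genes. With the replicate block the receptors called were 30, 27, 22 and 24, and it changed no call of a named gene other than those of Nr2c2. Changes of sign, none of them of a called value, came mostly from leaving out 1 library: Rarg in clone 2 ranged over -0.094 to 0.037 and Nr2f6 over -0.196 to 0.024, and between the clones Rxrb ranged over -0.068 to 0.027, Nr4a3 over -0.338 to 0.028 and Nr2c2 over -0.082 to 0.052. Rarg in clone 2 was also at 0.003 with a minimum count of 50, and Nr2c2 between the clones at -0.007 with the 2 groups alone and -0.062 without replicate 1 of every group. The cause was not tested. Leaving out replicate 1 of every group was chosen after seeing the data. Receptors under 10 counts in a group rest on few reads.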
